A study of Mus musculus with 6 samples.

Results

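The genes described here are the 7 MHC class II genes *H2-Aa*, *H2-Ab1*, *H2-Eb1*, *Cd74*, *H2-DMa*, *H2-DMb1* and *Ciita*, found by their symbols among the 44556 genes of each count table. RNA-seq was carried out on parietal bone, a plate of the skull vault, of newborn C57BL/6 mice, with 3 libraries labelled OsxCre and 3 from OsxCre;Stat3fl/fl littermates. Both genotypes carry Cre recombinase driven by *Osx* (*Sp7*), which in this line acts mainly in osteoblast precursors, and in the second genotype Cre removes floxed exons of *Stat3*. The labels name no floxed allele for the controls. The comparison asks what loss of *Stat3* in cells of the osteoblast lineage does to gene expression in the bone, which here is read as a whole tissue with its macrophages, osteoclasts, marrow, vessels and attached muscle.

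MHC class II molecules present peptides taken up from outside the cell to CD4+ T cells. They are made mainly by dendritic cells, B cells and macrophages, and interferon-gamma can induce them in other cells. The alpha chain (*H2-Aa*) and the beta chain (*H2-Ab1*) form I-A, and *H2-Eb1* encodes the beta chain of I-E. The invariant chain, encoded by *Cd74*, escorts the new molecules to the endosome, where the heterodimer of *H2-DMa* and H2-DMb exchanges its last fragment for a peptide. *Ciita* encodes the coactivator without which the class II genes are barely transcribed. It does not bind DNA itself and is held at class II promoters by the proteins that sit on a conserved pair of elements, the X box and the Y box.

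These elements are shown because they are what the class II promoters share and where the activator acts. RefSeq promoter entries (GRCm38.p6) existed for 4 of the 7 genes, and in 3 of them a stretch close to the X box (letters CTNGNAAC) was followed by the reversed CCAAT of the Y box (ATTGG) on the strand of the gene. Both are in capitals in the following stretches, each written 5′ to 3′ on the strand of the gene.
H2-Aa: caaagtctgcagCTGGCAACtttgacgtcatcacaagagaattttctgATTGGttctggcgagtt
H2-Eb1: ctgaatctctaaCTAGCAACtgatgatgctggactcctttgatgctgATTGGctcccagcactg
H2-DMb1: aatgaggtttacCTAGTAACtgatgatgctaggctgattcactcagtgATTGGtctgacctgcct

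The *H2-Aa* stretch lies at chr17:34287855-34287919 on the minus strand, that of *H2-Eb1* at chr17:34305761-34305824 and that of *H2-DMb1* at chr17:34153082-34153146, both on the plus strand, and each stretch lies before the annotated start of its gene. The first bases of the X and Y letters were 36 bases apart in *H2-Aa* and *H2-DMb1* and 35 in *H2-Eb1*, and the X letters began 84, 97 and 94 bases before the start of *H2-Aa*, *H2-DMb1* and *H2-Eb1*. Within 250 bases before the start, searched on both strands, 11% of 32536 promoters held CTNGNAAC and 33.8% held ATTGG. The ordered pair with at most 50 bases between their first letters was held by 65 promoters, or 0.2%. The X letters were written after these promoters had been read, so the shares describe the match and do not test it. The 2 entries for *H2-DMa* did not hold the pair. Neither the letters of the gamma-activated site (GAS, TTCNNNGAA, in 7.04% of promoters) nor those of the interferon-stimulated response element (ISRE, in 2.98%) were found in the entries of the 4 genes.

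Libraries held between 8193651 and 12080044 counts on genes, and the mean OsxCre;Stat3fl/fl total was 0.794 of the mean OsxCre total. Levels are given as CPM (counts scaled to a common library size with edgeR's TMM factors), on which 3 counts correspond to between 0.252 and 0.368 CPM. *Stat3* had 150, 135 and 141 CPM in the OsxCre libraries and 153, 155 and 155 CPM in those labelled OsxCre;Stat3fl/fl, so the count was not lower there. It is taken over the whole gene and all cells of the bone, so it does not check the deletion, and each genotype rests on its label. The study describes the newborns as male, whereas the X-linked *Xist* had between 881 and 1059 CPM in the 6 libraries, and *Ddx3y* and *Kdm5d*, on the Y chromosome, were at 0 in each. Osteoblast genes such as *Col1a1* and *Ibsp* were abundant, and so was RNA of skeletal muscle. Of the 8 osteoblast markers 1 was called lower, where 0.481% of all genes were. This was *Ibsp*, which fell from 1003 ± 65.3 to 633 ± 27.2 CPM (SD, n = 3 each, adjusted p = 0.0213, edgeR). The 8 muscle markers summed to between 20812 and 22300 CPM in OsxCre and between 23516 and 34588 CPM in OsxCre;Stat3fl/fl, with 1 called higher and 1 lower. The adult fast myosin gene *Myh4* fell from 436 ± 36.3 to 35.7 ± 4.47 CPM (SD, n = 3 each, adjusted p = 3.87e-05, edgeR). Another myosin gene, *Myh3*, rose from 342 ± 42 to 1122 ± 387 CPM (SD, n = 3 each, adjusted p = 0.0204, edgeR). In edgeR's quasi-likelihood test over 15600 genes, 121 genes were higher and 75 lower in OsxCre;Stat3fl/fl at an adjusted p under 0.05. These numbers were 112 and 114 when libraries were scaled by their totals alone, and 121 and 5451 without scaling.

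The class II genes were expressed at a low level in both genotypes. Between 36 and 102 counts per library were found for *H2-Aa*, *H2-Ab1*, *H2-Eb1*, *Cd74* and *H2-DMb1*, whereas *Ciita* had between 3 and 9 and *H2-DMa* between 2 and 7. The last 2 genes were too low for the filter, so 5 of the 7 genes were tested. Summed over the 7 genes, the level was 27, 29.5 and 33 CPM in the OsxCre libraries and 38.9, 32.6 and 37.5 CPM in the OsxCre;Stat3fl/fl libraries. The lowest OsxCre;Stat3fl/fl library thus lay just under the highest OsxCre library.

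Of the 5 genes tested, 0 passed an adjusted p of 0.05 in edgeR's quasi-likelihood test, where 1.26% of all genes did, and 0 reached an unadjusted p of 0.05, where 16.4% did. DESeq2's Wald test and limma-voom likewise called 0 of the 5. Each of the 5 had a log2 fold change above 0 with TMM scaling, with a median of 0.25 beside -0.0037 over all genes tested, but 1 of the 5 when libraries were not scaled, where the median of all genes moved to -0.38. The adjusted p-values were between 0.356 and 0.745 (edgeR).

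**Figure D1:**
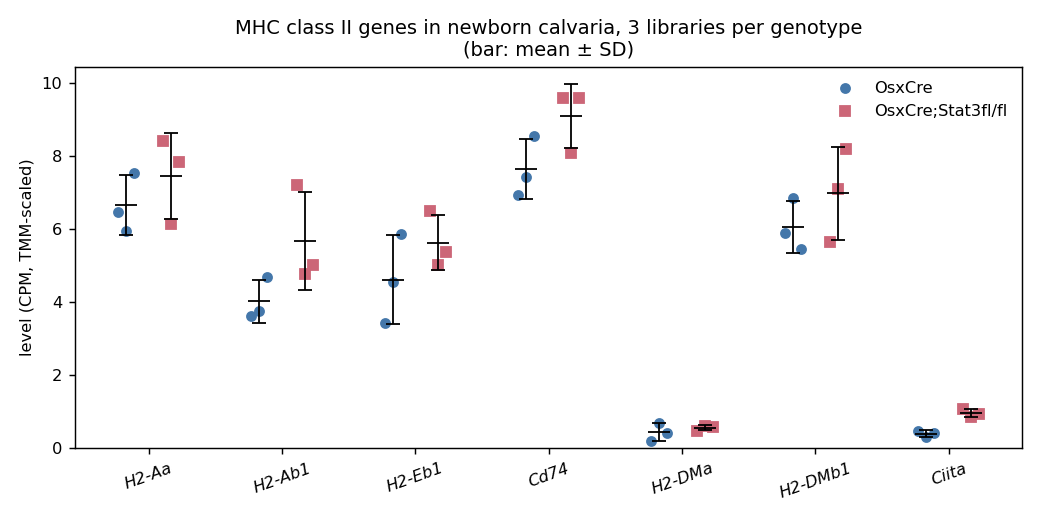
Level (CPM, TMM-scaled) of the 7 class II genes in each library, with circles for OsxCre, squares for OsxCre;Stat3fl/fl and bars for the mean ± SD of 3 libraries. Values of the genotypes overlap for H2-Aa, H2-Eb1, Cd74, H2-DMa and H2-DMb1, while H2-Ab1 and Ciita are higher in each OsxCre;Stat3fl/fl library.

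The alpha chain gene *H2-Aa*, on chromosome 17 of GRCm38 from 34282744 to 34287823, had 6.47, 5.95 and 7.55 CPM in the OsxCre libraries and 8.41, 6.13 and 7.84 CPM in the OsxCre;Stat3fl/fl libraries. The groups overlapped, because OsxCre;Stat3fl/fl library 2 lay below 2 of the OsxCre libraries. The difference on the log2 scale was 0.16 ± 0.20 (SE), with an adjusted p of 0.745 (edgeR) and a 95% interval from 0.817-fold to 1.53-fold.

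*H2-Ab1*, which encodes the partner beta chain and lies beside *H2-Aa* from 34263227 to 34269418, had 3.62, 3.77 and 4.7 CPM in OsxCre and 7.21, 4.78 and 5.03 CPM in OsxCre;Stat3fl/fl. It was the member of the 5 with the highest fold change and the one whose genotypes did not overlap, though the gap between the highest OsxCre and the lowest OsxCre;Stat3fl/fl library was narrow. Over all genes tested, 10.8% were higher in OsxCre;Stat3fl/fl without overlap. The log2 fold change of 0.49 (standard error 0.24) did not pass the test (adjusted p = 0.356, edgeR), and its 95% interval ran from 0.957-fold to 2.06-fold. Without OsxCre;Stat3fl/fl library 1, the highest of the 6, the log2 fold change was 0.28. Exons of *H2-Ab1* and *H2-Aa* overlap on opposite strands over 1.03% of the *H2-Ab1* exon bases in the GENCODE annotation of mm9. The strand setting of the counting is not known here, so reads from that overlap cannot be told apart.

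*H2-Eb1* had 3.43, 4.56 and 5.87 CPM in OsxCre and 6.48, 5.03 and 5.38 CPM in OsxCre;Stat3fl/fl. The OsxCre libraries spread more than the other group, and the groups overlapped. The difference of 0.28 ± 0.25 (SE) on the log2 scale did not pass the test, with an adjusted p of 0.632 (edgeR). *H2-Ea-ps*, the alpha chain gene that would complete I-E and that is defective in C57BL/6 mice, had 0 counts in the 6 libraries. A count of 0 in a single library allows an expected count of up to 3 by counting error alone, and 0 in all 6 allows less.

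*Cd74*, on chromosome 18, was the most counted of the 7 genes. It had 6.95, 7.44 and 8.56 CPM in OsxCre and 9.61, 8.09 and 9.59 CPM in OsxCre;Stat3fl/fl, with overlap in 1 library of each group. Its log2 difference was 0.25 ± 0.17 (SE), at an adjusted p of 0.513 (edgeR), and the 95% interval from 0.909-fold to 1.55-fold was the narrowest of the 5.

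The peptide exchange genes differed from each other far more than between genotypes. *H2-DMb1* had 5.9, 6.84 and 5.46 CPM in OsxCre and 5.64, 7.11 and 8.19 CPM in OsxCre;Stat3fl/fl. The groups overlapped, and the log2 difference was 0.20 ± 0.21 (SE), at an adjusted p of 0.68 (edgeR). *H2-DMa*, whose protein pairs with that of *H2-DMb1*, had 2, 7 and 5 counts in OsxCre and 4, 5 and 5 in OsxCre;Stat3fl/fl. Pooled by genotype, both had 14 counts of *H2-DMa*, a ratio of 1.3 after scaling with an exact Poisson interval from 0.574 to 2.94, which covers counting error only. *H2-DMb2*, a closely similar neighbour of *H2-DMb1*, had between 0 and 5 counts per library, and how reads that match both copies were counted is not known here.

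Per kilobase of exon, the order of levels in OsxCre was *Cd74*, *H2-DMb1*, *H2-Eb1*, *H2-Aa*, *H2-Ab1*, *H2-DMa* and *Ciita*. The levels were 5.42 ± 0.587 CPM per kb for *Cd74*, 4.1 ± 0.479 for *H2-DMb1*, 3.89 ± 1.03 for *H2-Eb1*, 3.35 ± 0.412 for *H2-Aa* and 2.45 ± 0.357 for *H2-Ab1* (SD, n = 3 each). *H2-DMb1* and *H2-Eb1*, and *H2-Eb1* and *H2-Aa*, overlapped in their ranges, whereas the other neighbours in this order did not. *H2-DMa* followed at 0.265 ± 0.154 CPM per kb and *Ciita* at 0.0508 ± 0.0116 CPM per kb (SD, n = 3 each). In OsxCre;Stat3fl/fl the order differed only in that *H2-Eb1* (4.74 ± 0.64 CPM per kb) and *H2-DMb1* (4.72 ± 0.863 CPM per kb) changed places, with overlapping ranges. Exon lengths were those of GENCODE for mm9, since the annotation behind the counts is not named.

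Within libraries, the invariant chain kept close to the alpha chain. *Cd74* counts were between 1.07 and 1.32 times those of *H2-Aa* in the 6 libraries. *H2-Ab1* counts were 0.605 ± 0.0402 of those of *H2-Aa* in OsxCre and 0.76 ± 0.109 in OsxCre;Stat3fl/fl (SD, n = 3 each). The genotypes did not overlap, but the highest OsxCre ratio, 0.633, lay just under the lowest OsxCre;Stat3fl/fl ratio, 0.642. These ratios rest on few counts and were not tested.

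*Ciita* was the member with the largest ratio between genotypes, at counts near the limit of the depth. It had 5, 3 and 5 counts in the OsxCre libraries and 9, 7 and 8 in the smaller OsxCre;Stat3fl/fl libraries, or 0.398 ± 0.0912 and 0.958 ± 0.113 CPM (SD, n = 3 each), and each OsxCre;Stat3fl/fl library was above each OsxCre library. Over all genes tested, among which *Ciita* was not, 10.8% were higher in OsxCre;Stat3fl/fl without overlap. Pooled over libraries, *Ciita* had 13 and 24 counts, a ratio of 2.4 after scaling with an exact Poisson interval from 1.17 to 5.13 (counting error only). When the filter was left out, the log2 fold change was 1.23 (standard error 0.51), with an unadjusted p = 0.029 and an adjusted p = 0.364 over 28016 genes (edgeR). A rise of *Ciita* was therefore not called at this depth.

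*Nlrc5* encodes the relative of *Ciita* that activates MHC class I genes, and it is given beside *Ciita* because both are activators of the same protein family. It had 6, 4 and 12 counts in OsxCre and 37, 34 and 23 in OsxCre;Stat3fl/fl. The log2 difference was 2.47 ± 0.39 (SE), at an adjusted p of 0.0327 (edgeR). *Nlrc5* was thus higher in each OsxCre;Stat3fl/fl library and passed the test, although an adjusted p under 0.05 was kept in 1 of the 6 fits that left out a library, the one without OsxCre library 3, with values up to 0.132 in the others. Within libraries, *Nlrc5* had 1.2, 1.33 and 2.4 counts for each count of *Ciita* in OsxCre and 4.11, 4.86 and 2.88 in OsxCre;Stat3fl/fl. The groups did not overlap, and p was 0.1 in a two-sided exact permutation test, the smallest that 3 libraries against 3 can give.

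**Figure D2:**
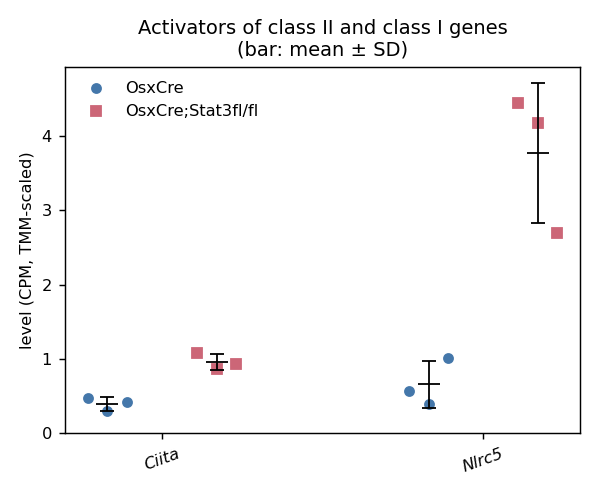
Level (CPM, TMM-scaled) of Ciita and Nlrc5 in each library, with circles for OsxCre, squares for OsxCre;Stat3fl/fl and bars for the mean ± SD of 3 libraries. Ciita stays near 1 CPM or below in both genotypes, while Nlrc5 is 0.658 ± 0.315 CPM in OsxCre and 3.77 ± 0.943 CPM in OsxCre;Stat3fl/fl.

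MHC class I molecules present peptides made inside the cell. The 9 genes of their presentation had log2 fold changes above 0 with TMM scaling, and 6 of the 9 without scaling, where the median of all genes was -0.38. Among them 1 (*Nlrc5*) was called higher, where 0.776% of all genes were, and 8 had an unadjusted p under 0.05 with a positive fold change, where 8.03% of all genes did. Their median log2 fold change was 0.48. *B2m*, the light chain of class I, had 215 ± 15.8 CPM in OsxCre and 289 ± 7.97 CPM in OsxCre;Stat3fl/fl (SD, n = 3 each, log2 fold change 0.42, adjusted p = 0.0573, edgeR). For *Tap1*, a peptide transporter gene, the log2 difference was 0.82, at an adjusted p of 0.0671 (edgeR). DESeq2's Wald test called 4 of the 9 genes higher, namely *Nlrc5*, *Tap1*, *H2-K1* and *B2m*, where it called 305 of all 15600 genes higher. Limma-voom called 1 higher, *Nlrc5*, where it called 118 of all 15600. *H2-K1*, *H2-D1* and *B2m* together had between 13.9 and 15.9 times the summed CPM of the 7 class II genes in OsxCre and between 14.4 and 18.3 times in OsxCre;Stat3fl/fl. These ranges overlapped. The ratio leaves out *Nlrc5*, *Tap1* and other class I genes and rests on few class II counts. A difference between the classes in their response was thus not shown, and it was not tested.

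**Figure D3:**
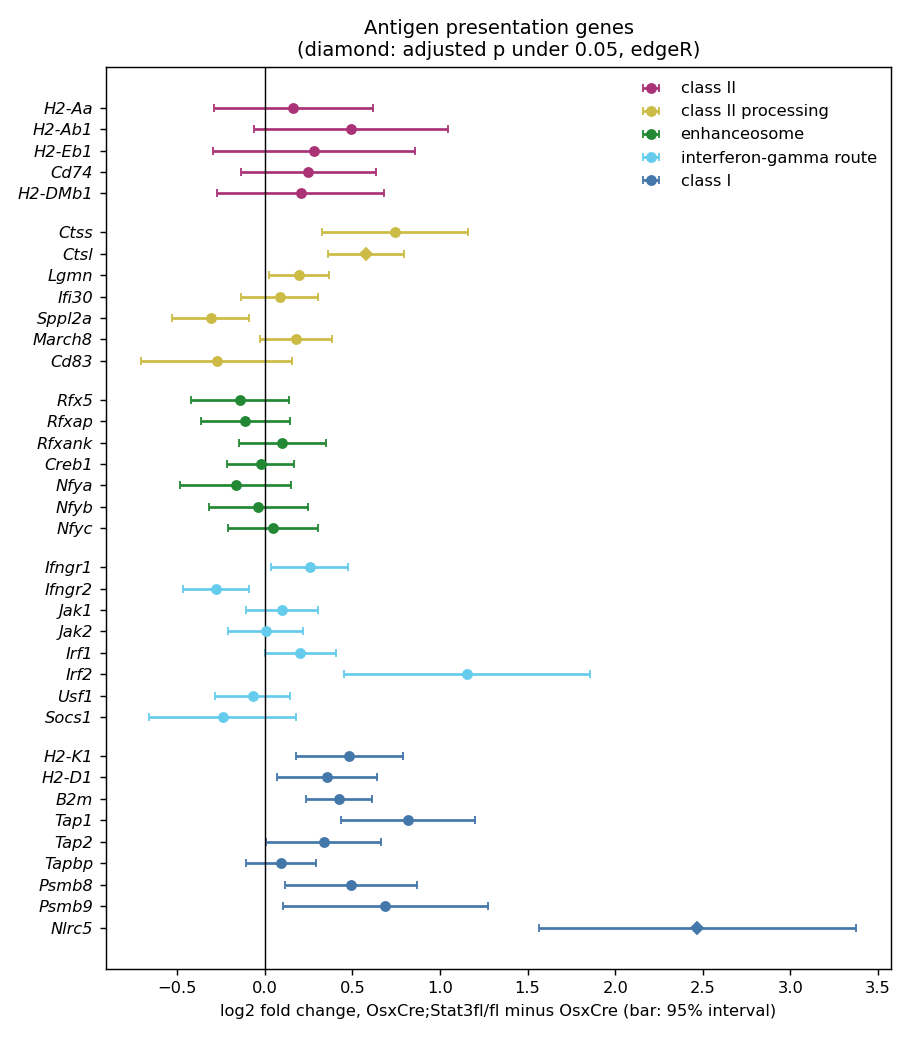
Log2 fold change (OsxCre;Stat3fl/fl minus OsxCre) with its 95% interval for tested genes of 5 groups, from edgeR's quasi-likelihood fit on 3 libraries per genotype. The intervals of the 5 class II genes span 0, the enhanceosome genes lie close to 0, and the called genes (diamonds) are Ctsl and Nlrc5.

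The proteins that hold *Ciita* at the X and Y boxes come from 7 genes: *Rfx5*, *Rfxap* and *Rfxank* of the RFX complex, *Creb1*, and *Nfya*, *Nfyb* and *Nfyc* of the factor that binds the Y box. These were well counted, with log2 fold changes between -0.17 and 0.10 (edgeR). Of the 7, 0 were called, where 1.26% of all genes were, and 0 had an unadjusted p under 0.05, where 16.4% did (edgeR). DESeq2's Wald test and limma-voom also called 0 of the 7. When libraries were not scaled, 5 were called lower, where 5451 of all 15600 genes tested were. The 7 genes summed to between 211 and 226 CPM in OsxCre and between 198 and 224 CPM in OsxCre;Stat3fl/fl.

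Of the 10 genes that lead from interferon-gamma to *Ciita*, 9 were tested and 0 were called at the adjusted p (edgeR), where 1.26% of all genes were. At an unadjusted p under 0.05, 4 were higher and 1 lower (edgeR), where 8.03% of all genes were higher and 8.34% lower. DESeq2's Wald test and limma-voom called 0 of the 9 as well. Differences on the log2 scale for the transcription factor genes *Irf2* and *Irf1* were 1.15 and 0.20, at adjusted p-values of 0.125 and 0.299 (edgeR). The receptor genes had 0.26 (*Ifngr1*) and -0.28 (*Ifngr2*), at adjusted p-values of 0.241 and 0.149 (edgeR). Without scaling, where the median of all genes was -0.38, *Ifngr1* had -0.12. *Jak1*, *Jak2*, *Usf1* and *Socs1* had log2 fold changes between -0.24 and 0.10. *Ifng* itself had 1 count in 1 OsxCre;Stat3fl/fl library and 0 in the other 5, under the limit of 3 counts.

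The genes for regulators of *Ciita* in myeloid and B cells differed in direction. Of the 4 tested, edgeR called 0, where it called 1.26% of all genes, and DESeq2's Wald test and limma-voom also called 0. At an unadjusted p under 0.05, 1 was higher and 2 lower (edgeR), where 8.03% of all genes were higher and 8.34% lower. *Irf8*, which is needed for dendritic cells and monocytes, had 9.92 ± 1.03 CPM in OsxCre and 15.3 ± 1.22 CPM in OsxCre;Stat3fl/fl (SD, n = 3 each, log2 fold change 0.62, adjusted p = 0.0861, edgeR). *Irf4* and *Prdm1*, the latter a repressor of *Ciita*, had -0.84 and -0.66 on the log2 scale, at adjusted p-values of 0.123 and 0.14 (edgeR). The values of *Irf8*, *Irf4* and *Prdm1* did not overlap between genotypes, while those of *Spi1*, which encodes the myeloid factor PU.1, did. Of all genes tested, 10.8% were higher and 12.2% lower without overlap.

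Among the 8 genes that process antigen or turn over class II molecules, 7 were tested and 1 was called, *Ctsl*, where 1.26% of all genes were. *Ctsl* encodes cathepsin L, a lysosomal protease that many cell types make. It rose from 239 ± 11.7 to 357 ± 34.4 CPM (SD, n = 3 each, log2 fold change 0.58, adjusted p = 0.0365, edgeR), a call that was lost in each of the 6 fits that left out a library, with adjusted p up to 0.139. Without scaling its log2 difference was 0.20, beside a median of -0.38 over all genes, and it was not called. *Ctss* encodes cathepsin S, which cuts the invariant chain in antigen-presenting cells, and it had 4.26 ± 0.236 and 7.15 ± 0.587 CPM (SD, n = 3 each, log2 fold change 0.74, adjusted p = 0.103, edgeR) without overlap. Over all genes tested, 10.8% were higher in OsxCre;Stat3fl/fl without overlap. *Ifi30*, the thiol reductase of the endosome, overlapped between genotypes, and *Sppl2a*, whose protease removes the last stub of the invariant chain, had -0.31 on the log2 scale, at an adjusted p of 0.164 (edgeR). *March1*, a ubiquitin ligase gene for class II turnover, had 0 counts in the 6 libraries.

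Other class II genes were at the limit of detection. *H2-Oa* and *H2-Ob*, which encode the inhibitor of the exchange factor, had between 2 and 9 counts per library, *H2-Eb2* had 1 count in all, and 0 of the 5 genes in this group passed the filter. The costimulatory genes *Cd86*, *Cd40* and *Icosl* had log2 fold changes of -0.42, -0.40 and -0.09. For *Cd274*, which encodes the inhibitory ligand PD-L1, it was 0.76 ± 0.59 (SE, adjusted p = 0.581, edgeR). Of the 4 tested genes of this group, 0 were called by edgeR, DESeq2's Wald test or limma-voom, and 0 had an unadjusted p under 0.05 (edgeR). Over all genes tested, edgeR called 1.26%, and 16.4% had an unadjusted p under 0.05. *Cd80* and *Pdcd1lg2* were too low to test.

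On chromosome 17 the class II genes lie with class I processing genes between them. The 11 genes tested that reach within 200 kb of *H2-Ab1* each had a log2 fold change above 0 with TMM scaling, with a median of 0.34, though without scaling *H2-DMb1*, *Tap2*, *H2-Aa* and *H2-Eb1*, among its class I and class II genes, were below 0. Their adjusted p-values were 0.0671 or higher (edgeR), and in DESeq2's Wald test *Tap1* passed. At an unadjusted p under 0.05, 4 of the 11 were higher, where 8.03% of all genes were, namely *Psmb9*, *Tap1*, *Psmb8* and *Tap2*, which sit between *H2-DMb1* and *H2-Ab1* and encode subunits of the immunoproteasome and of the peptide transporter. *H2-DMb1*, on one side of them, and *H2-Ab1*, *H2-Aa* and *H2-Eb1*, on the other, had smaller fold changes than *Tap1* with errors that overlapped those of *Tap2*. Farther out, *Brd2* and *Col11a2* on one side had log2 fold changes of 0.02 each, and *BC051142* on the other had 0.60 ± 0.31 (SE), at an unadjusted p of 0.0922 and an adjusted p of 0.388 (edgeR).

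**Figure D4:**
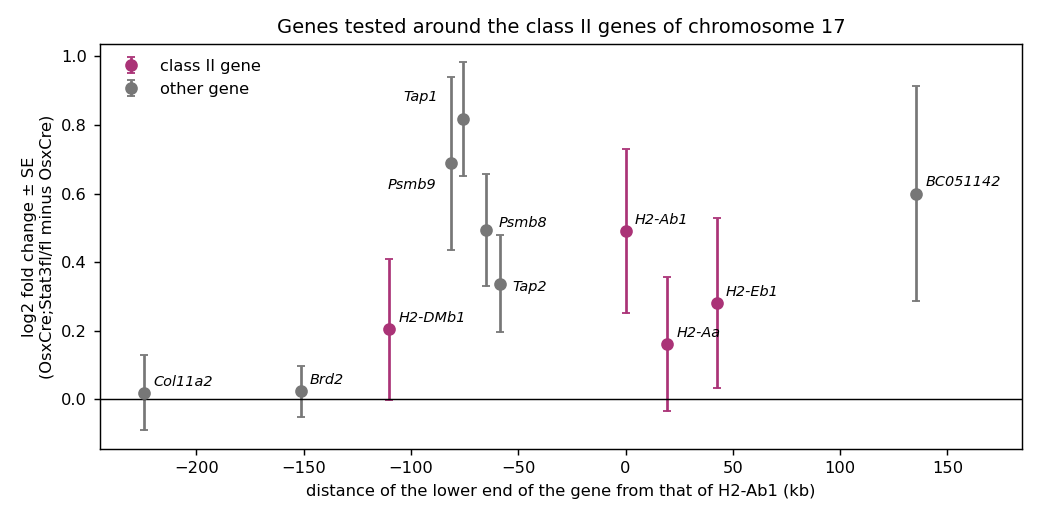
Log2 fold change ± standard error (OsxCre;Stat3fl/fl minus OsxCre, edgeR) of the 11 genes tested that reach within 200 kb of H2-Ab1, against the distance in kb between the lower ends of the gene and of H2-Ab1. Class II genes lie between 0.16 and 0.49, Tap1 lies highest at 0.82, Brd2 and Col11a2 lie near 0, and BC051142, at the other end, lies at 0.60.

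Levels in whole bone do not tell fewer cells of a type from less RNA per cell, so markers of the cells that make class II were read beside the 7 genes. The 11 macrophage markers summed to between 596 and 624 CPM in OsxCre and between 688 and 721 CPM in OsxCre;Stat3fl/fl. The groups did not overlap, and *C1qb*, a complement gene of tissue macrophages, was the 1 of 11 called, where 1.26% of all genes were (log2 fold change 0.50, adjusted p = 0.0253, edgeR). At an unadjusted p under 0.05, 5 of the 11 were higher and 0 lower (edgeR), where 8.03% of all genes were higher and 8.34% lower. Of these markers, 8 had a log2 fold change above 0 with TMM scaling and 3 without scaling. Without scaling the median of all genes was -0.38, and *C1qb* was at 0.12 and not called. For each 100 CPM of macrophage markers there were 4.88 ± 0.514 CPM of the 7 class II genes in OsxCre and 5.19 ± 0.586 CPM in OsxCre;Stat3fl/fl (SD, n = 3 each), so the genotypes overlapped on this scale.

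Dendritic cell and lymphocyte markers were low. The 9 dendritic cell markers summed to between 7.44 and 10.6 CPM in OsxCre and between 5.88 and 7.48 CPM in OsxCre;Stat3fl/fl. Of these, 2 were tested and 0 called by edgeR, DESeq2's Wald test or limma-voom, with 0 at an unadjusted p under 0.05 (edgeR). Beside this list and the lymphocyte lists below, 1.26% of all genes were called and 16.4% had an unadjusted p under 0.05 (edgeR). *Xcr1* was at 0 and *Clec9a*, *Zbtb46* and *Cd209a* each had between 0 and 3 counts per library. *Itgax*, which macrophages also express, had between 10 and 57 counts and *Batf3* between 18 and 48, with log2 fold changes of -0.82 and -0.29 (adjusted p = 0.372 and 0.717, edgeR), while *Flt3* had between 1 and 10 counts. The 9 B cell markers summed to between 15.1 and 22.1 CPM in OsxCre and between 15.2 and 19.8 CPM in OsxCre;Stat3fl/fl, with 0 of 6 tested called by the same tools and 0 at an unadjusted p under 0.05 (edgeR), and *Cr2*, a marker of mature B cells, was at 0. Of the 10 T and NK cell markers, 2 were tested and 0 called by the same tools, with 0 at an unadjusted p under 0.05 (edgeR), namely *Cd4* with between 26 and 46 counts per library and *Lck* with between 16 and 31, whose log2 fold changes were 0.07 and 0.56. Of the others, *Cd8a* was at 0 and *Cd3e*, *Cd3d* and *Cd3g* had between 0 and 3 counts per library. *Cd207*, which marks Langerhans cells of the skin, had 1 count in all. *Epcam* and *Cd1d1*, the other genes of the Langerhans cell list, had between 229 and 326 and between 133 and 369 counts per library. Their log2 fold changes were 0.07 and -0.28 (adjusted p = 0.867 and 0.626, edgeR), and both overlapped between genotypes.

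The 8 neutrophil markers summed to between 277 and 478 CPM in OsxCre and between 118 and 196 CPM in OsxCre;Stat3fl/fl. Of the 6 tested, 1 was called lower, *S100a9* (log2 fold change -1.25, adjusted p = 0.0423, edgeR), where 0.481% of all genes were, and 5 were lower at an unadjusted p under 0.05, where 8.34% were. DESeq2's Wald test called 4 of the 6 lower and limma-voom 1, where they called 222 and 62 of all 15600 genes lower. *Mpo*, a gene of neutrophil precursors, had 6.15 CPM on average in OsxCre and 6.99 CPM in OsxCre;Stat3fl/fl, a log2 difference of 0.18, and *Elane*, another, had 0.804 and 1.22 CPM, both with overlap. The part of the macrophage, neutrophil and muscle differences in the class II levels was not tested. *C1qb* and *S100a9* lost their calls in each of the 6 fits that left out a library.

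**Figure D5:**
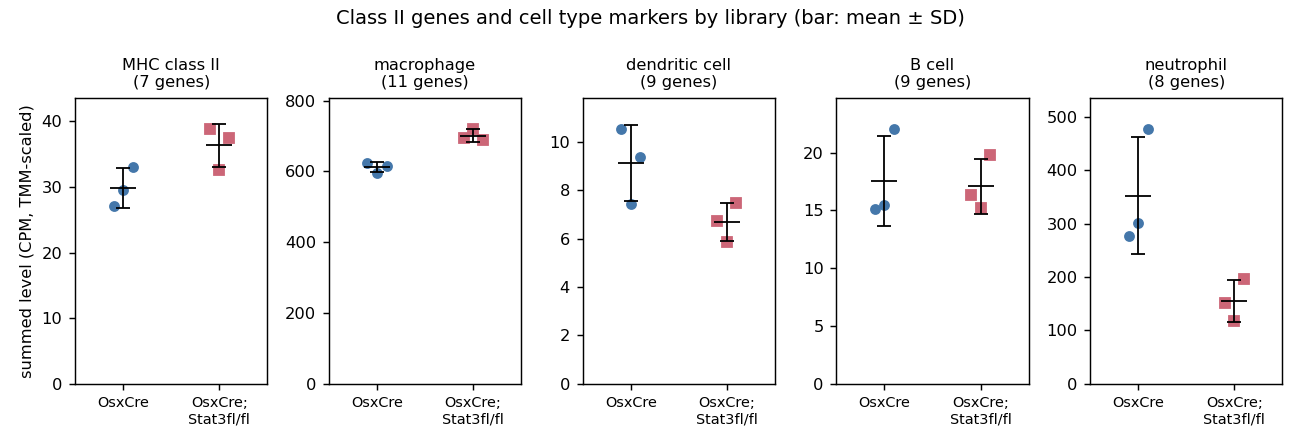
Summed level (CPM, TMM-scaled) of the 7 class II genes and of the macrophage, dendritic cell, B cell and neutrophil markers in each library, with circles for OsxCre, squares for OsxCre;Stat3fl/fl and bars for the mean ± SD of 3 libraries. Each panel has its own scale from 0. The macrophage sum is higher and the neutrophil sum lower in each OsxCre;Stat3fl/fl library, while the class II and B cell sums overlap.

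The profile of the class II genes over the 6 libraries, as the mean of log2(CPM + 0.5) relative to OsxCre over the 5 tested genes, was -0.13, -0.02 and 0.15 in OsxCre and 0.36, 0.11 and 0.29 in OsxCre;Stat3fl/fl. Of the 5 genes, *Cd74* followed it most closely, with a root mean square difference of 0.0249 log2 units, and *H2-DMb1* least, with 0.242. Each of the 5 is part of the mean it is set against, so these values cannot be compared with those of other genes. Among the other 12175 genes with at least 5 CPM, the nearest were *Neu1* (0.0418), *Slc25a28* (0.0492), *Zfp777* (0.0514), *Nub1* (0.0569) and *Agfg2* (0.057). Their log2 fold changes were between 0.21 and 0.32, at adjusted p-values between 0.136 and 0.402 (edgeR). With so many candidates and 6 libraries, profiles this close are a description only.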

How the data were processed

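RNA-seq of newborn parietal bone from 3 OsxCre and 3 OsxCre;Stat3fl/fl mice was analysed, with genotypes and replicate numbers from the sample labels. The authors deposited 1 table of raw read counts per gene symbol for each library. The submitters' processing notes name HISAT2 and GRCm38, whereas the Methods name TopHat, mm9, Cufflinks and Cuffdiff, and the counting program, annotation and strand setting are not given in the sources used here. RefSeq positions and promoters are GRCm38.p6, and exon lengths and overlaps are GENCODE M1 (mm9).

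In R 4.3.3, counts were fitted by edgeR 4.0.16 (filterByExpr with minimum count 10 and minimum total 15, TMM, quasi-likelihood test, two-sided, Benjamini-Hochberg over 15600 genes, called at an adjusted p under 0.05). Standard errors are the log2 fold change divided by the root of F. Alternatives used DESeq2 1.42.0, limma 3.58.1 and other scalings and filters. The fits were tested on simulated counts. The genes and lists were chosen with earlier results of these data known. Named genes are the 7 genes, *Stat3*, the antigen presentation lists, markers called or at 0 in every library and the 5 genes nearest in profile. One listed gene is not reported here by name. Other markers, genes of the chromosome 17 region, motifs and sex-linked genes were added after values were seen.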

Additional observations from a re-analysis of the deposited data

How the results depend on the processing

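The count of class II genes called was 0 under every alternative run. The 5 tested genes kept their direction with DESeq2's size factors, library totals, either other filter, limma-voom, the Wald test of DESeq2, the replicate block and each library left out. Without scaling, where the median of all genes was -0.38, the log2 fold change became -0.22 for *H2-Aa*, -0.11 for *H2-Eb1*, -0.13 for *Cd74* and -0.16 for *H2-DMb1*. It likewise became -0.26 for *Stat3*, -0.18 for *Lgmn*, -0.29 for *Tapbp*, -0.17 for *Irf1*, -0.12 for *Ifngr1*, -0.046 for *Tap2* and -0.031 for *H2-D1*.

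Counts of calls moved more. Genes lower numbered 75 in the fit reported, 114 with library totals, 5451 without scaling, 178 without the filter, 222 with DESeq2's test, 1 with the replicate block and between 5 and 36 with a library left out. Genes higher numbered 121, and 250 without the filter, 305 with DESeq2's test, 0 with the replicate block and between 7 and 67 with a library left out. Other antigen presentation genes called numbered 2 (and 2 by limma-voom), 14 without scaling, 4 without the filter, 5 with DESeq2's test, 0 with the replicate block and between 0 and 1 with a library left out. Cell type markers called numbered 5, 14 without scaling, 10 without the filter, 14 with DESeq2's test, 1 with the replicate block and between 1 and 5 with a library left out. The cause was not tested, beyond the fewer libraries of the latter fits. Same-numbered libraries are not known to be paired, and their deviations from the genotype means had a mean correlation of -0.235.

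The depth limits *Ciita* and *H2-DMa*, with 37 and 28 counts over the 6 libraries, to the wide counting intervals given above. The highest upper bound among the 5 tested genes was 2.06-fold, for *H2-Ab1*.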
